A study of Mus musculus with 12 samples.

Results

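The late end of a poly(I:C) time course was compared with its start in mouse bone marrow-derived dendritic cells (DC). The members were chosen by title alone: the 2 arrays labelled 24hr and the 2 labelled 0hr, 4 of the 12 arrays of the series, and each 24 h array was set against the 0 h array of the same replicate number. All non-control probe sets of the Affymetrix mouse expression array were used, 45037 of 45101. The samples were C57BL/6 bone marrow grown for 6 days with GM-CSF (10 ng/ml in the labels), fed on days 2 and 4 and selected for CD11c. Poly(I:C), at 2.5 μg/ml in the labels, was then given for 0 or 24 h, while the study's methods give higher doses of both agents. Donor mice were female per the methods. Their age is 3-4 months in one label and 8-10 weeks in another. Every group shared the strain, the GM-CSF culture and the CD11c selection, and no array after 0 h held cells kept without poly(I:C), so time in culture and poly(I:C) cannot be told apart. Each experiment used the bone marrow of 1 mouse, the experiments were run and hybridized months apart, and n = 2 at each time.

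Poly(I:C) is a synthetic double-stranded RNA that imitates a product of viral replication. It is bound by TLR3 in endosomes and by the RIG-I-like helicases in the cytosol, which activate IRF3 and NF-kB and lead to the release of type I interferon. Interferon then acts back on the cells through JAK kinases and a complex of STAT proteins and IRF9 that binds interferon-stimulated response elements (ISRE) in promoters. Maturing DC are known to lose capacity for antigen uptake, to gain antigen presentation and co-stimulation, and to move from tissue to lymph node.

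The DC label was checked on markers. All 15 DC markers listed were on the array and 13 passed the filter on mean signal. The integrin Itgax (CD11c), the target of the selection, measured 18780 and 18930 at 0 h against 16180 and 22650 at 24 h in experiments 1 and 2, the order in which signals are given throughout, and its adjusted p was 0.933. Flt3 and Dpp4 were below the filter. Flt3 measured 29.1 and 29.6 at 0 h against 89.9 and 27.5 at 24 h, and Dpp4 55.0 and 6.32 at 0 h against 35.6 and 53.2 at 24 h. Of the 13, 3 were called higher, Ccr7 and H2-Eb1 among them, and Irf4 was called lower. Without the replicate block 0 were called higher. Batf3 measured 1109 and 944 at 0 h against 565 and 875 at 24 h, and Zbtb46 415 and 247 against 165 and 318. The DC markers summed to 122273 and 96210 at 0 h against 148915 and 154570 at 24 h. Markers of other cells are given as sums of signals. The 4 B cell markers summed to 126 and 88.2 at 0 h against 251 and 109 at 24 h, and the 5 T cell markers to 240.0 and 260.2 at 0 h against 47.0 and 232 at 24 h. The T cell marker Cd3d was below 16 on all 4 arrays. The 4 natural killer cell markers summed to 196 and 161 at 0 h against 222 and 98.4 at 24 h. The 9 macrophage markers, which DC of this culture share in part, were bright: 50480.6 and 45129 at 0 h against 63726 and 47109 at 24 h. Of these, Fcgr1 and Mertk were called higher and C1qa, C1qb and C1qc lower, and without the replicate block none of the 3 falls passed. Neutrophil markers summed to 2796 and 2602 at 0 h against 1737 and 3739 at 24 h, nearly all of it S100a8. Fibroblast markers summed to 246 and 351 at 0 h against 359 and 415 at 24 h. Markers of mast cells, basophils and eosinophils summed to 210 and 244 at 0 h against 130 and 190 at 24 h. Erythroid markers summed to 76.5 and 170 at 0 h against 74.1 and 99.2 at 24 h. In bulk samples fewer cells of a type and less RNA per cell cannot be told apart, and the part of other cells in the results was not tested.

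Promoters of genes from both directions of the response are shown first, because genes were called both higher and lower at 24 h. Each is a RefSeq window of 300 bases on the build GRCm38.p6, from 250 bases before to 50 after an annotated start, read along the gene's strand. Capitals mark the ISRE core, GAAANNGAAA or its reverse complement, in Ifit1, Rsad2, Gbp2 and Irgm1, whose transcripts rose at 24 h. They mark the E-box CACGTG in Utp20 and Tsr1, whose transcripts fell. Only windows that hold the motif are printed, so they do not stand for all risers or fallers. Gbp2, Utp20 and Tsr1 were chosen after their values were seen.
Ifit1, chr19:34640639-34640938, plus strand: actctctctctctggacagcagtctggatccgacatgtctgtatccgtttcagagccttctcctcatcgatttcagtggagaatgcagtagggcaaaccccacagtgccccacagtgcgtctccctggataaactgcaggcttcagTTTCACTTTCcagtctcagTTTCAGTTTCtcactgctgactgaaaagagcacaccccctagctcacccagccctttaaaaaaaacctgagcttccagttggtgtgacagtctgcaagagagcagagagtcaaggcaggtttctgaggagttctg
Rsad2, chr12:26456403-26456702, minus strand: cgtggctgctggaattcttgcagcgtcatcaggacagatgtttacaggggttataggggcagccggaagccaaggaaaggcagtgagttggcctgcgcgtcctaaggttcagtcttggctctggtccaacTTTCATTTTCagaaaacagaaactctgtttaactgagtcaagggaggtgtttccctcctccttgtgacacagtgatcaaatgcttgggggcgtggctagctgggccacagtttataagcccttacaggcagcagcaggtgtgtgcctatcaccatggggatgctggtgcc
Gbp2, chr3:142620413-142620712, plus strand: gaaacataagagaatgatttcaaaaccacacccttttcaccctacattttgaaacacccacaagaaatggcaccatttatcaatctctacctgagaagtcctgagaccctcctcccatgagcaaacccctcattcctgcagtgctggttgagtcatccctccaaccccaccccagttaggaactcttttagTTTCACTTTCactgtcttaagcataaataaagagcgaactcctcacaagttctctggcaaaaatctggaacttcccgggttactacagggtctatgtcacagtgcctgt
Irgm1, chr11:48871371-48871670, minus strand: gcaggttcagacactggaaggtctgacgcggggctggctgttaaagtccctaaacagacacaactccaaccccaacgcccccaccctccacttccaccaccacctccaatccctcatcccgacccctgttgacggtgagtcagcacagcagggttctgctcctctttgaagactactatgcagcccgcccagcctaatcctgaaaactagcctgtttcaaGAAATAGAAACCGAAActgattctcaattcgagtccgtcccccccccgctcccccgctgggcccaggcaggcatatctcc
Utp20, chr10:88826765-88827064, minus strand: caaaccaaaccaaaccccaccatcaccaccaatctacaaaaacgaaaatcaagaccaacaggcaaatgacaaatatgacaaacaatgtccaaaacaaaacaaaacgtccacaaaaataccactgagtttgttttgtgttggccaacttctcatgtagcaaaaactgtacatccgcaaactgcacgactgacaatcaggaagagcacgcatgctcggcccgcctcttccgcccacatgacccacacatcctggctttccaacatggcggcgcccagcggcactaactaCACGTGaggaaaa
Tsr1, chr11:74897830-74898129, plus strand: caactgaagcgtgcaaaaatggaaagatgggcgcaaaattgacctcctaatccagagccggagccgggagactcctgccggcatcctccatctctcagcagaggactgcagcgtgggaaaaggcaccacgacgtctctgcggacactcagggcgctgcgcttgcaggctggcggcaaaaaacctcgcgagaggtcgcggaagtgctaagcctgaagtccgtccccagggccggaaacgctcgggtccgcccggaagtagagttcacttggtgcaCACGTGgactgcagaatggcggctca

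The ISRE cores lie 104 and 85 bases upstream of the Ifit1 start, 120 upstream of the Rsad2 start, 59 upstream of the Gbp2 start and 30 and 24 upstream of the Irgm1 start, where the matches overlap. In Utp20 and Tsr1 the E-box lies downstream of the start. A promoter window was matched by symbol for 8978 of the 10985 genes tested, and genes with several starts had several windows. The ISRE core was in 3.44% of all 32851 windows and in 3.88% of the tested genes with a window. It was in 9.01% of the genes called higher at 24 h (93 of 1032), in 22.5% of those called higher by at least 4-fold (42 of 187) and in 48.6% of the antiviral effectors (17 of 35). Genes called lower held it in 3.25% (50 of 1540), and those called lower by at least 4-fold in 1.88% (3 of 160). The E-box shares of all called genes lay near that of all tested genes. Among genes called lower by at least 4-fold the E-box was in 16.2% (26 of 160). Among those called higher by at least 4-fold it was in 7.49% (14 of 187). The E-box was in 7.15% of all windows and 11.9% of tested genes, in 10.6% of genes called higher and 13.1% of genes called lower, and in 23.8% of ribosome biogenesis genes (10 of 42) against 2.86% of antiviral effectors (1 of 35). Ribosome biogenesis was not alone in this: the E-box was in 47.8% of lysosomal genes (11 of 23), a list with more members higher than lower at 24 h, in 44.4% of the MYC network and G1 regulators (8 of 18) and in 23.8% of glycolysis genes (5 of 21). All motifs were searched on both strands, and a match is a description of the sequence only. The composite element of ATF4 and CHOP, TGATGNAAT, was in 0.468% of tested genes, 0.291% of those called higher and 0.584% of those called lower.

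**Figure D1:**
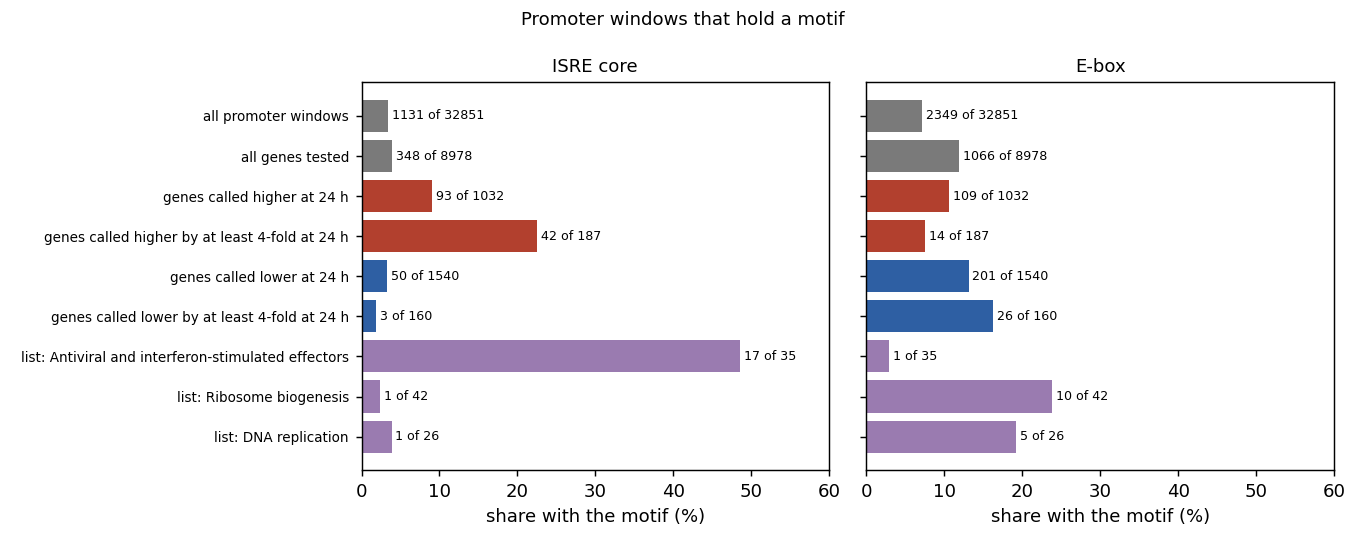
Share of promoter windows (first bar) or of genes with a window (other bars) that hold the ISRE core (left) or the E-box (right), in percent on the x axis, with the counts beside each bar. The ISRE share is 3.88% among tested genes and 48.6% among antiviral effectors, and the E-box share is 11.9% among tested genes and 23.8% among ribosome biogenesis genes, and lysosomal genes, which are not drawn, hold it in 47.8%.

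At 24 h more probe sets were lower than higher against 0 h. Of 22519 tested with limma on log2(signal + 16), 2078 were called higher at an adjusted p under 0.05 (9.23%) and 3933 lower (17.5%). At 1 probe set per gene, 1259 of 10985 genes rose (11.5%) and 1887 fell (17.2%). Without the replicate block 587 genes rose and 835 fell. The counts were 704 and 880 without the experiment 1 array at 0 h, 690 and 751 without that of experiment 2, and 1662 and 2998 without the experiment 1 array at 24 h. The rises were larger at the top end: 54 genes rose and 2 fell by at least 16-fold, and 240 rose and 199 fell by at least 4-fold. The median change of the risers was 2.17-fold and of the fallers 2.21-fold. The share of calls that were lower depended on the scaling: 65.4% as deposited, 53.1% under median centring and 57.4% after quantile normalization. At 1 probe set per gene the balance turned under median centring, with 1457 higher and 1293 lower (47.0% of calls lower against 60.0% as deposited), while quantile normalization gave 1442 and 1662. As deposited, the median tested probe set stood at −0.19 on the log2 scale at 24 h, and at −0.06 under both other scalings, so a small fall is to be read against that shift. Array medians were 83.1 and 77.8 at 0 h against 73.3 and 71.1 at 24 h. Of 9 reference genes tested, 0 were called higher and 3 lower, and 3 were lower under both other scalings. Their list median was 0.03 on the log2 scale. In 48 genes, Slc7a11 and Msr1 among them, different probe sets were called in opposite directions.

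The experiments were set beside each other. By size alone, 926 tested probe sets (4.11%) were at least 2-fold higher and 1549 (6.88%) at least 2-fold lower in both experiments, and 119 moved at least 2-fold in opposite directions. Across the 10985 genes the log2 ratios of the experiments had a Pearson correlation of 0.657, a description, since genes are not independent replicates. Each called gene moved in 1 direction in both experiments. A call needs a mean change that is large beside the spread, so this follows largely from the calling itself. The 24 h signals did not overlap the 0 h signals in 1213 of 1259 risers and 1801 of 1887 fallers. Over all 10985 genes they lay above the 0 h signals in 2387 (21.7%) and below them in 3446 (31.4%).

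**Figure D2:**
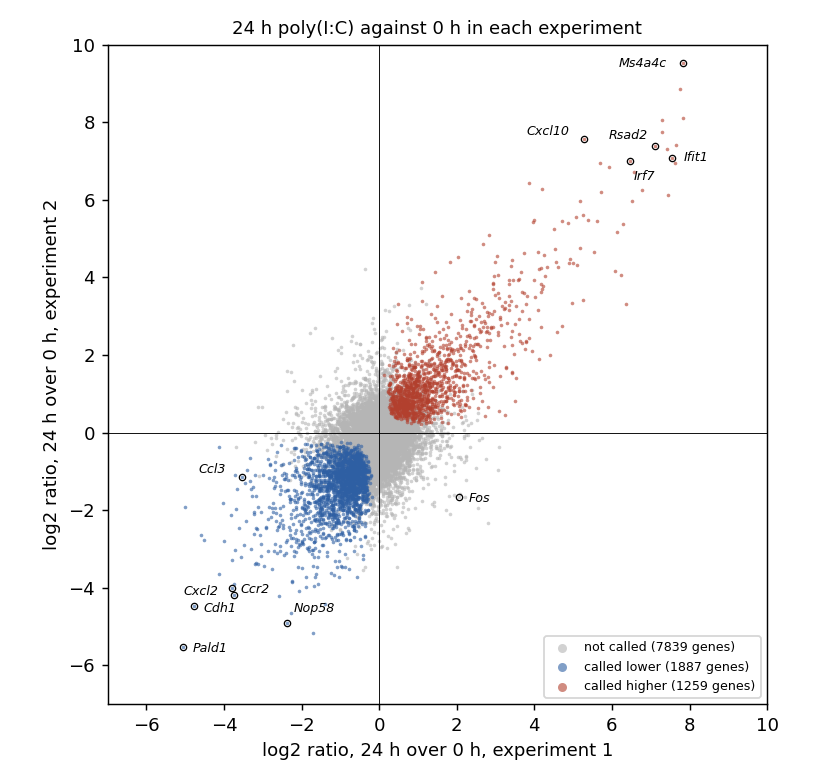
Log2 ratio of the 24 h over the 0 h signal (16 added) in experiment 1 (x axis) and experiment 2 (y axis), 1 point per gene, coloured by call. The correlation is 0.657, and 46 genes lie at least 2-fold apart in opposite directions.

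At 1 probe set per gene, 46 genes moved at least 2-fold in opposite directions, and some immediate early and receptor genes are given as examples. Fos, a subunit of the AP-1 transcription factor, measured 1695 and 2138 at 0 h against 7161 and 665 at 24 h, so it was above 0 h in experiment 1 and below it in experiment 2 (adjusted p = 0.876). Egr1, another immediate early factor, did the same, with 941 and 1104 at 0 h against 2001 and 494 at 24 h. Notch1 measured 885 and 1174 at 0 h against 2309 and 316 at 24 h, and the proton-sensing receptor Gpr65 719 and 472 at 0 h against 2763 and 145 at 24 h. The 0 h signals of these genes were within 2-fold of each other. In them the difference between experiments sits in the 24 h arrays, and with 1 array a side it has no test. Other genes lay further apart and differed at 0 h too. Nrxn3 measured 56.2 and 318 at 0 h against 489 and 50.9 at 24 h. Inhbb went the other way, with 178 and 32.4 at 0 h against 25.9 and 217 at 24 h. Fos had a log2 fold change of -1.53 (adjusted p = 0.0108) in the fit without the experiment 1 array at 24 h. Notch1 and Gpr65 were chosen after their values were seen, and Fos and Egr1 singled out then.

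**Figure D3:**
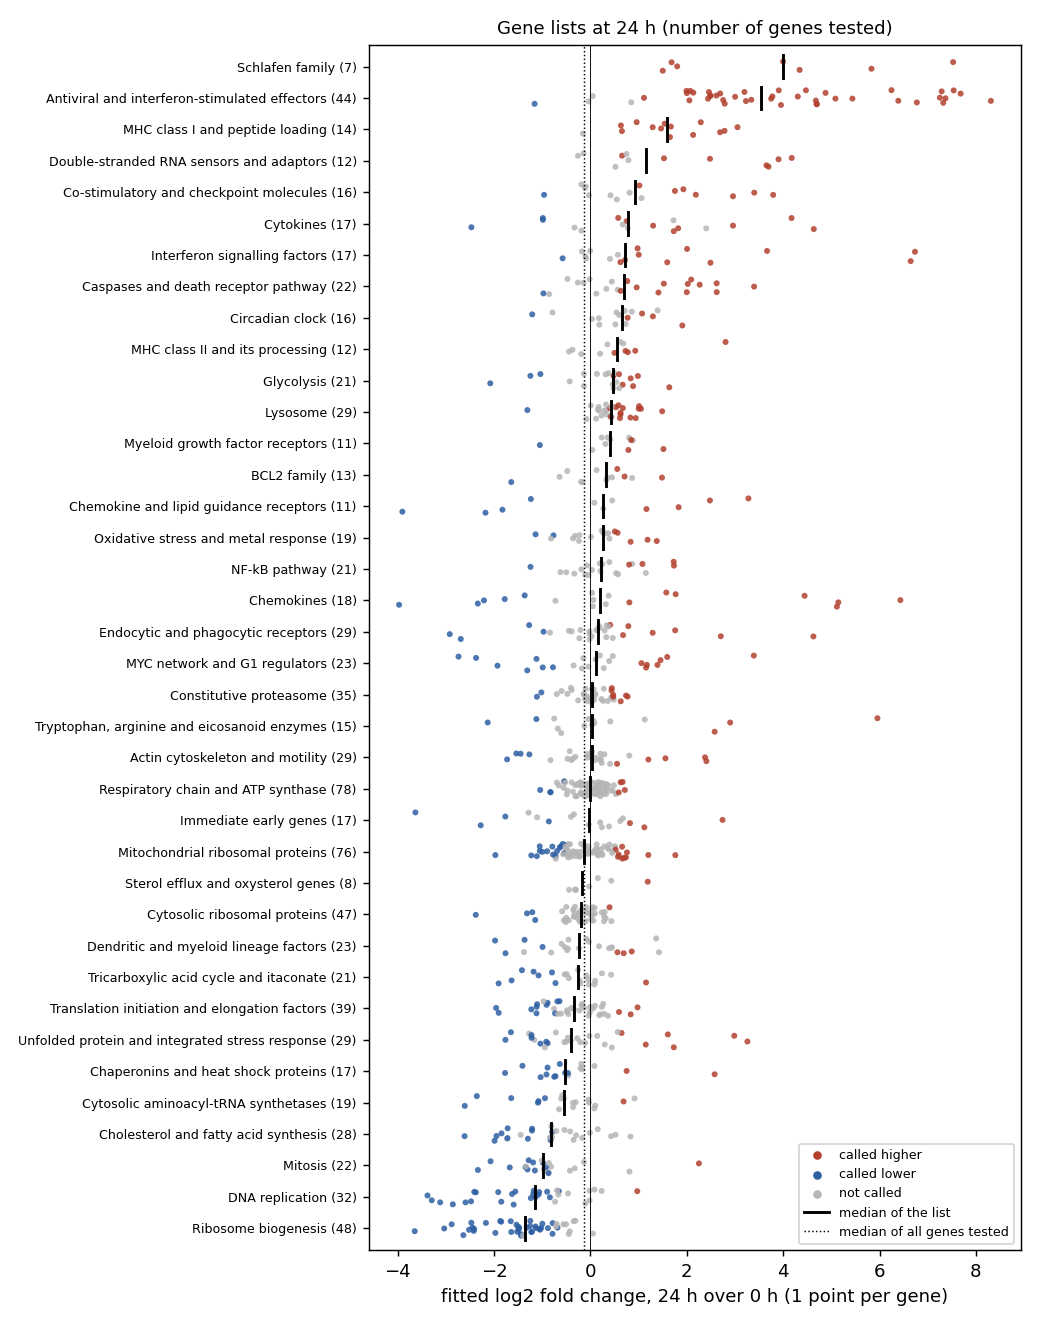
Fitted log2 fold change at 24 h over 0 h (x axis), 1 point per tested gene coloured by its call, for each gene list (y axis, genes tested in brackets), with the list median as a bar and the median of all genes, −0.13, as a dotted line. Schlafen genes and antiviral effectors have the highest medians, 4.00 and 3.55, and ribosome biogenesis the lowest, −1.36.

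Sensors of double-stranded RNA were higher at 24 h. Of 12 tested, 7 rose and the others did not pass, with a list median of 1.16 on the log2 scale against −0.13 over all genes. Each list count from here on is to be read beside the shares over all genes, 11.5% higher and 17.2% lower. Ifih1 (MDA5), a helicase that binds long double-stranded RNA, measured 613 and 558 at 0 h against 10990 and 10730 at 24 h, a rise of 18.1-fold (log2 fold change 4.18 ± 0.20, standard error of the limma fit, adjusted p = 7.61e-07). Ddx58 (RIG-I), the sister helicase for short ends, measured 588 and 679 at 0 h against 7754 and 8515 at 24 h (3.65 ± 0.17, adjusted p = 5.21e-07). Both helicases had 24 h signals that lay close together between experiments and far from 0 h. Dhx58 (LGP2), their regulator, measured 211 and 318 at 0 h against 4115 and 4107 at 24 h (3.90 ± 0.27, adjusted p = 7.39e-06). Zbp1, a sensor of Z-form nucleic acid, measured 698 and 493 at 0 h against 5691 and 10680 at 24 h (3.70 ± 0.30, adjusted p = 2.15e-05). The endosomal receptor Tlr3 differed more between experiments. It measured 114 and 185 at 0 h against 1378 and 566 at 24 h (2.48 ± 0.41, adjusted p = 0.00191), and its adaptor Ticam1 (TRIF) 326 and 266 at 0 h against 1190 and 649 at 24 h (1.53 ± 0.28, adjusted p = 0.00346). The groups did not overlap in either. The kinase Tbk1, downstream of both routes, also passed. The helicase adaptor Mavs (adjusted p = 0.0601) and the RNA-dependent kinase Eif2ak2, with 798 and 745 at 0 h against 2048 and 602 at 24 h (adjusted p = 0.295), did not. Mavs passed with the filter at the 75th percentile (adjusted p = 0.0497), under median centring (adjusted p = 0.0432), after quantile normalization (adjusted p = 0.0347), without the experiment 1 array at 6 h (adjusted p = 0.0345), without the experiment 2 array at 6 h (adjusted p = 0.0357) and without the experiment 2 array at 24 h (adjusted p = 0.0364). Eif2ak2 passed without the experiment 2 array at 24 h (adjusted p = 0.0124). Tlr3 had a log2 fold change of 1.75 without the experiment 1 array at 0 h and 3.21 without that of experiment 2.

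Factors of interferon signalling were higher in 10 of 17 tested genes and lower in 1. Irf7, the amplifier of type I interferon, measured 284 and 196 at 0 h against 26400 and 27280 at 24 h, a 106-fold rise (6.73 ± 0.31, adjusted p = 5.82e-07). Usp18, a feedback inhibitor of the interferon receptor, measured 238 and 223 at 0 h against 24150 and 25170 at 24 h (6.65 ± 0.17, adjusted p = 4.83e-08). These were among the largest changes on the array, and the 2 experiments gave nearly equal 24 h signals. Stat2 and Irf9, partners in the complex that binds the ISRE, measured 513 and 405 at 0 h against 7398 and 4822 at 24 h and 767 and 578 at 0 h against 2842 and 2614 at 24 h in that order (3.67 ± 0.17 and 2.01 ± 0.18, adjusted p = 5.68e-07 and 5.22e-05). Irf1, a further activator, measured 956 and 723 at 0 h against 4113 and 5492 at 24 h (2.49 ± 0.28, adjusted p = 0.00019). Irf3, which is activated by phosphorylation of protein already present, did not pass (adjusted p = 0.612). Fewer rose (6) without the replicate block, from the 4 arrays alone and without the experiment 1 array at 0 h.

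Antiviral and interferon-stimulated effectors had the most risers by number: 40 of 44 tested rose, 1 fell and 3 did not pass. The list median was 3.55 on the log2 scale. Larger shares rose on the shorter Schlafen (7 of 7) and MHC class I (13 of 14) lists. From 39 to 41 rose without the replicate block or with any 1 array left out. Ifit3, an RNA-binding protein that works in a complex with Ifit1 and Ifit2, measured 120.2 and 149 at 0 h against 27510 and 28180 at 24 h, a 186-fold rise (7.54 ± 0.24, adjusted p = 1.78e-07). Ifit1, which holds back foreign capped RNA, measured 84.1 and 83.5 at 0 h against 18860 and 13460 at 24 h (7.32 ± 0.27, adjusted p = 2.34e-07), and Ifit2 123 and 44.8 at 0 h against 30040 and 28190 at 24 h (8.31 ± 0.33, adjusted p = 2.84e-07). In each of these the lowest 24 h signal was far above the highest 0 h signal. Rsad2 (viperin), which makes a chain-terminating nucleotide, measured 244 and 193 at 0 h against 36000 and 34960 at 24 h (7.25 ± 0.38, adjusted p = 1.24e-06), and Cmpk2, its neighbour and nucleotide kinase, 114 and 116 at 0 h against 25590 and 16430 at 24 h (7.29 ± 0.26, adjusted p = 2.34e-07). Isg20, an RNA exonuclease, measured 83.0 and 71.0 at 0 h against 15490 and 23380 at 24 h (7.68 ± 0.37, adjusted p = 6.99e-07), and Oasl1, of the oligoadenylate synthetase family, 132 and 87.4 at 0 h against 25440 and 16290 at 24 h (7.37 ± 0.30, adjusted p = 3.26e-07). Mx2, a dynamin-like GTPase, was near background at 0 h. It measured 6.65 and 12.0 at 0 h against 3899 and 1919 at 24 h (6.77 ± 0.33, adjusted p = 7.61e-07). Mx2 had a log2 fold change of 6.11 without the experiment 1 array at 0 h, 7.44 without that of experiment 2, 8.10 with a pseudocount of 1 and 5.26 with 64. Ifit2 had a log2 fold change of 7.68 with a pseudocount of 64. Isg20 had a log2 fold change of 7.08 with a pseudocount of 64.

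Irgm1, Gbp2 and Gbp3 are interferon-inducible GTPases that act on vacuoles of intracellular pathogens. Irgm1 measured 600.3 and 581 at 0 h against 14450 and 12510 at 24 h, a 22.2-fold rise (4.47 ± 0.17, adjusted p = 2.34e-07), Gbp3 571 and 540.5 at 0 h against 11880 and 10700 at 24 h (4.30 ± 0.18, adjusted p = 3.63e-07) and Gbp2 2887 and 2064 at 0 h against 36870 and 36890 at 24 h (3.91 ± 0.22, adjusted p = 1.91e-06). Xaf1, a pro-apoptotic interferon-induced protein, measured 623 and 503 at 0 h against 16730 and 22760 at 24 h (5.08 ± 0.21, adjusted p = 3.28e-07). In none of these did the groups overlap. Exceptions on the list were few. Ifitm1, which blocks viral entry, measured 969 and 1006 at 0 h against 911 and 1146 at 24 h (adjusted p = 0.932), and the RNA editing enzyme Adar did not pass (adjusted p = 0.949). The 1 faller, named for that reason, was Ifi27, a mitochondrial protein, with 2513 and 3925 at 0 h against 829 and 2358 at 24 h (-1.16 ± 0.20, adjusted p = 0.00262). Ifi27 (adjusted p = 0.23) lost the call without the replicate block. Ifi27 (adjusted p = 0.0572) lost the call from the 4 arrays alone.

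**Figure D4:**
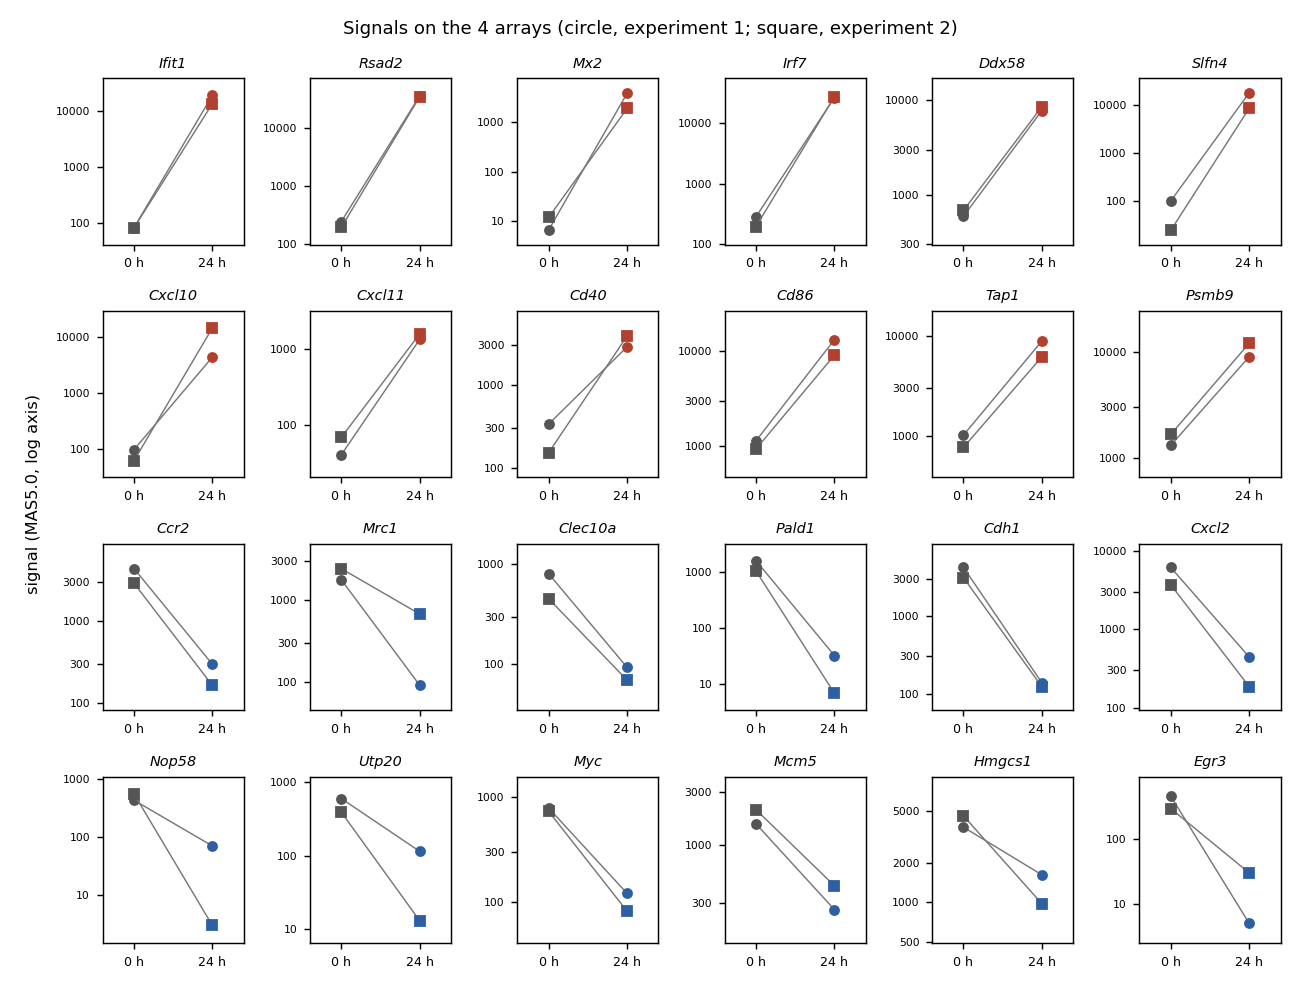
Signals (log axis) on the 0 h and 24 h arrays of both experiments for genes with described roles, 1 panel per gene, with circles for experiment 1, squares for experiment 2 and a line joining the arrays of an experiment. Risers and fallers keep their groups apart in every panel, and the experiments differ most at 24 h in Mrc1, Nop58 and Utp20, where Nop58 stands at 69.4 and 2.93.

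The Schlafen genes, a family tied to T cell quiescence and to restriction of viral translation, rose in 7 of 7 tested members, with the lowest at 1.50 on the log2 scale. Slfn1 measured 133 and 171 at 0 h against 11650 and 7736 at 24 h (5.83 ± 0.21, adjusted p = 2.34e-07). Slfn4, known from myeloid cells, measured 101 and 24.5 at 0 h against 18390 and 8718 at 24 h (7.53 ± 0.39, adjusted p = 1.16e-06). Slfn2, already bright at 0 h, measured 7645 and 8513 at 0 h against 25450 and 31160 at 24 h (1.80 ± 0.15, adjusted p = 3.78e-05), and the groups were apart in all 3. Slfn5 and Slfn8 measured 313 and 159 at 0 h against 5929 and 2451 at 24 h and 175 and 219 at 0 h against 7254 and 2513 at 24 h in that order (adjusted p = 1.46e-06 and 1.49e-05). Members of this family are close in sequence, so probe sets may share signal. Slfn9 (adjusted p = 0.0582) lost the call without the replicate block. Slfn4 had a log2 fold change of 6.72 with a pseudocount of 64.

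Most NF-kB pathway genes did not pass at 24 h. Of 21 tested, 4 rose and 1 fell, with a list median of 0.21 on the log2 scale. Irak2, a kinase of Toll-like receptor signalling, measured 582 and 688 at 0 h against 2365 and 1925 at 24 h (1.73 ± 0.19, adjusted p = 0.000177), and the inhibitor Nfkbib 922 and 751 at 0 h against 2398 and 3286 at 24 h (1.73 ± 0.25, adjusted p = 0.00082). The subunits Rela (adjusted p = 0.362) and Relb (adjusted p = 0.182) and the feedback inhibitors Nfkbia (adjusted p = 0.595) and Tnfaip3 (adjusted p = 0.0887) did not pass. Without the experiment 1 array at 24 h Nfkbia (adjusted p = 0.00366) and Tnfaip3 (adjusted p = 0.011) passed, and without that of experiment 2 Rela (adjusted p = 0.0439) did. Fewer rose (2) from the 4 arrays alone. More rose (8) without the experiment 1 array at 24 h.

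Cytokines went both ways at 24 h: 8 of 17 rose and 3 fell. The subunit Il12b, shared by IL-12 and IL-23, measured 50.2 and 50.5 at 0 h against 859 and 1621 at 24 h, a 18.1-fold rise (4.17 ± 0.62, adjusted p = 0.00107). Il15, which sustains natural killer and memory T cells, measured 80.5 and 164 at 0 h against 2877 and 3692 at 24 h (4.63 ± 0.51, adjusted p = 0.000189), and Osm, of the IL-6 family, 299.7 and 393 at 0 h against 842 and 899 at 24 h (1.30 ± 0.20, adjusted p = 0.00138). In these 3 the 24 h arrays lay above both 0 h arrays. Tnf, the early inflammatory cytokine, was below its starting level, with 3221 and 2715 at 0 h against 772 and 350.4 at 24 h (-2.47 ± 0.24, adjusted p = 7.96e-05). Il6 was low at both times, with 49.9 and 5.23 at 0 h against 410.3 and 183 at 24 h (2.96 ± 0.40, adjusted p = 0.00063). The interferon gene Ifnb1 differed widely between the 24 h arrays. It measured 32.6 and 48.4 at 0 h against 86.1 and 842 at 24 h and did not pass (adjusted p = 0.0706). Ifnb1 passed under median centring (adjusted p = 0.0473), from the 4 arrays alone (adjusted p = 0.0224) and without the experiment 1 array at 24 h (adjusted p = 8.34e-05). Il6 (adjusted p = 0.128) lost the call without the replicate block. Il12b had a log2 fold change of 5.24 without the experiment 1 array at 24 h, 3.11 without that of experiment 2 and 3.45 with a pseudocount of 64. Il15 had a log2 fold change of 3.76 without the experiment 1 array at 0 h and 5.51 without that of experiment 2. Il6 had a log2 fold change of 3.95 with a pseudocount of 1 and 1.95 with 64. Fewer rose (3) or fell (1) without the replicate block. Fewer fell (1) under median centring, without the intensity trend, from the 4 arrays alone and without either 0 h array.

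Chemokines went both ways as well. Of 18 tested, 7 rose and 5 fell, and the list median of 0.19 turned negative after quantile normalization. The ligands of CXCR3, the receptor of activated T cells, rose. Cxcl10 measured 96.8 and 61.3 at 0 h against 4405 and 14680 at 24 h, a 86.3-fold rise (6.43 ± 0.43, adjusted p = 6.41e-06), and Cxcl11 40.1 and 68.4 at 0 h against 1363 and 1612 at 24 h (4.44 ± 0.40, adjusted p = 5.00e-05). Cxcl9, below 16 at 0 h, measured 7.06 and 6.78 at 0 h against 1534 and 391 at 24 h (5.11 ± 0.78, adjusted p = 0.00124). Its 24 h signals were nearly 4-fold apart but clear of 0 h. Ccl5 (RANTES), which draws T cells and monocytes, measured 1129 and 920.5 at 0 h against 33600 and 39880 at 24 h (5.14 ± 0.36, adjusted p = 7.56e-06), and Cxcl16, a membrane-bound ligand and scavenger receptor, 7887 and 5262 at 0 h against 16970 and 21790 at 24 h (1.58 ± 0.23, adjusted p = 0.000869). Among the fallers, Cxcl2, which draws neutrophils, measured 6139 and 3691 at 0 h against 444 and 186 at 24 h, a 15.6-fold fall (-3.97 ± 0.52, adjusted p = 0.000493). Ccl3, another inflammatory chemokine, measured 16710 and 24610 at 0 h against 1431 and 11160 at 24 h (-2.33 ± 0.52, adjusted p = 0.00837). Ccl17, a DC product that draws CCR4-bearing T cells, did not pass (adjusted p = 0.938). Ccl17 passed without the experiment 1 array at 24 h (adjusted p = 0.0225). Ccl3 (adjusted p = 0.0703) lost the call without the replicate block. Ccl3 (adjusted p = 0.0689) lost the call without the experiment 1 array at 0 h. Cxcl10 had a log2 fold change of 7.36 without the experiment 1 array at 24 h, 5.50 without that of experiment 2 and 5.84 with a pseudocount of 64. Cxcl9 had a log2 fold change of 4.09 without the experiment 1 array at 0 h, 6.14 without that of experiment 2, 6.61 with a pseudocount of 1 and 3.59 with 64. Ccl3 had a log2 fold change of -1.10 without the experiment 1 array at 24 h and -3.57 without that of experiment 2. Cxcl11 had a log2 fold change of 3.72 with a pseudocount of 64. Fewer fell (1) without the replicate block. Fewer fell (2) without either 0 h array.

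Receptors for guidance moved in both directions, 4 higher and 4 lower of 11 tested. Ccr2, the receptor for inflammatory monocyte chemokines, measured 4353 and 2885 at 0 h against 298 and 165 at 24 h, a 14.9-fold fall (-3.90 ± 0.18, adjusted p = 6.46e-07). Ccr7, which guides DC to lymph nodes, measured 272 and 149 at 0 h against 2771 and 516 at 24 h (2.48 ± 0.53, adjusted p = 0.00719). Both 24 h arrays lay above both 0 h arrays, but experiment 1 was over 5-fold above experiment 2. Ccrl2, a chemerin-binding receptor, measured 489 and 628 at 0 h against 4275 and 7130 at 24 h (3.28 ± 0.35, adjusted p = 0.000167), Cxcr4, the receptor for CXCL12, 237 and 403 at 0 h against 1034 and 1260 at 24 h (1.83 ± 0.31, adjusted p = 0.00201) and the complement receptor C5ar1 196 and 220.5 at 0 h against 34.6 and 32.7 at 24 h (-2.17 ± 0.43, adjusted p = 0.0051). Ccr7 (adjusted p = 0.334) and Cxcr4 (adjusted p = 0.0853) lost the call without the replicate block. Ccr7 (adjusted p = 0.0637) lost the call without the experiment 1 array at 0 h. C5ar1 (adjusted p = 0.058) lost the call without the experiment 2 array at 0 h. Ccr7 had a log2 fold change of 1.46 without the experiment 1 array at 0 h and 3.50 without that of experiment 2. C5ar1 had a log2 fold change of -1.48 with a pseudocount of 64. Fewer rose (1) without the replicate block. Fewer rose (2) without the experiment 1 array at 0 h. Fewer fell (2) from the 4 arrays alone and without the experiment 2 array at 24 h. Fewer fell (1) without the experiment 2 array at 0 h.

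Adhesion and the actin cytoskeleton showed some large single changes. Cdh1 (E-cadherin), which holds DC together in culture, measured 4175 and 3083 at 0 h against 138 and 123 at 24 h, a 24.6-fold fall and one of the largest on the array (-4.62 ± 0.21, adjusted p = 5.82e-07). Of 29 actin and motility genes, 5 rose and 4 fell, and after quantile normalization 4 rose and 5 fell. Over all genes 11.5% rose and 17.2% fell. Coro1a, which promotes actin turnover, measured 13230 and 11880 at 0 h against 4746 and 3004 at 24 h (-1.73 ± 0.20, adjusted p = 0.000249), and the focal adhesion protein Vcl 4513 and 4536 at 0 h against 2081 and 1686 at 24 h (-1.27 ± 0.16, adjusted p = 0.000476). The GTPase Rhoc, linked to motility, measured 2230 and 3119 at 0 h against 5671 and 10720 at 24 h (1.56 ± 0.16, adjusted p = 0.000131), and Rhov 261 and 228 at 0 h against 1315 and 1360 at 24 h (2.38 ± 0.30, adjusted p = 0.000434). On the actin list, fewer rose (3) or fell (2) without the replicate block, more rose (9) or fell (8) without the experiment 1 array at 24 h and fewer fell (2) without the experiment 2 array at 0 h.

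Co-stimulatory and checkpoint molecules were higher in 7 of 16 tested genes and lower in 1. Cd86, a ligand of CD28, measured 1139 and 933 at 0 h against 13320 and 9143 at 24 h, a 10.6-fold rise (3.40 ± 0.23, adjusted p = 7.01e-06). Cd40, through which T cells license DC, measured 336 and 152 at 0 h against 2886 and 3903 at 24 h (3.79 ± 0.40, adjusted p = 0.000148). Cd80, the partner of CD86, was above 0 h on both 24 h arrays but did not pass, with 368 and 429 at 0 h against 733 and 978 at 24 h (adjusted p = 0.0669). Cd80 passed under median centring (adjusted p = 0.0403), after quantile normalization (adjusted p = 0.0447) and without the experiment 1 array at 24 h (adjusted p = 0.00619). Cd274, Cd200 and Cd47, ligands of inhibitory receptors, were among the risers. Cd274 (PD-L1) measured 2683 and 4349 at 0 h against 15300 and 15940 at 24 h (2.19 ± 0.20, adjusted p = 6.43e-05), Cd200 304 and 778 at 0 h against 4343 and 3506 at 24 h (2.96 ± 0.32, adjusted p = 0.000153) and Cd47, the signal against phagocytosis, 4213 and 5321 at 0 h against 17660 and 14530 at 24 h (1.75 ± 0.17, adjusted p = 0.000104). Cd40 had a log2 fold change of 4.68 without the experiment 1 array at 24 h and 2.91 without that of experiment 2. Cd200 had a log2 fold change of 2.37 without the experiment 1 array at 24 h and 3.55 without that of experiment 2.

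Genes of MHC class I and peptide loading were nearly uniform: 13 of 14 rose, 10 of them also without the replicate block, and the chaperone Pdia3 did not pass (adjusted p = 0.622). Tap1, a subunit of the peptide transporter, measured 1015 and 764 at 0 h against 8912 and 6192 at 24 h (3.05 ± 0.15, adjusted p = 7.61e-07), and Tap2 894 and 941 at 0 h against 2746 and 2395 at 24 h (1.47 ± 0.18, adjusted p = 0.0004). The immunoproteasome subunits Psmb9 and Psmb10, which change the peptides cut for class I, measured 1326 and 1677 at 0 h against 8949 and 11980 at 24 h and 2388 and 2828 at 0 h against 10210 and 12840 at 24 h in that order (2.78 ± 0.16 and 2.13 ± 0.16, adjusted p = 2.07e-06 and 1.22e-05). Both arrays of each time lay close together in these genes. The editor Tapbpl measured 278 and 339 at 0 h against 1986 and 2156 at 24 h (2.69 ± 0.35, adjusted p = 0.000502), and Nlrc5, the transactivator of class I genes, 643 and 330.5 at 0 h against 2786 and 1936 at 24 h (2.29 ± 0.21, adjusted p = 6.43e-05).

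MHC class II genes were higher in 5 of 12 tested, by less. H2-Oa, part of the inhibitor of peptide loading, measured 274 and 198 at 0 h against 2124 and 1407 at 24 h (2.81 ± 0.21, adjusted p = 1.50e-05), while the chain H2-Eb1 measured 18110 and 10450 at 0 h against 25040 and 22270 at 24 h (0.78 ± 0.17, adjusted p = 0.00883). The invariant chain Cd74 (adjusted p = 0.0903) and Ciita, the class II transactivator (adjusted p = 0.268), did not pass. Cd74 passed without the experiment 1 array at 24 h (adjusted p = 0.0156). H2-Eb1 (adjusted p = 0.277) lost the call without the replicate block. H2-Eb1 (adjusted p = 0.113) lost the call from the 4 arrays alone. H2-Eb1 (adjusted p = 0.0822) lost the call without the experiment 2 array at 0 h. Fewer rose (1) without the replicate block and from the 4 arrays alone. Fewer rose (3) without the filter, after quantile normalization, without the intensity trend and without the experiment 1 array at 0 h. Fewer rose (2) without the experiment 2 array at 0 h. More rose (8) without the experiment 1 array at 24 h.

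Receptors for uptake moved in both directions. Of 29 tested, 7 rose and 4 fell, and after quantile normalization 6 rose and 6 fell. Over all genes 11.5% rose and 17.2% fell. The lectins Mrc1 (mannose receptor) and Clec10a, which take up glycosylated antigen, fell. Mrc1 measured 1750 and 2390 at 0 h against 92.2 and 673 at 24 h (-2.92 ± 0.46, adjusted p = 0.00145) and Clec10a 804 and 452 at 0 h against 92.6 and 69.0 at 24 h (-2.69 ± 0.29, adjusted p = 0.000151). The antibody receptors Fcgr4 and Fcgr1 were among the risers. Fcgr4 measured 47.9 and 149 at 0 h against 1461 and 4337 at 24 h, a 24.7-fold rise (4.63 ± 0.31, adjusted p = 6.10e-06), and Fcgr1 2190 and 1225 at 0 h against 12370 and 9389 at 24 h (2.71 ± 0.20, adjusted p = 1.11e-05). The lectin Clec4e (Mincle), a sensor of damage and mycobacterial lipid, measured 11000 and 9370 at 0 h against 30980 and 38250 at 24 h (1.76 ± 0.17, adjusted p = 7.03e-05). In each of these the groups did not overlap. Mrc1 had a log2 fold change of -1.90 without the experiment 1 array at 24 h and -3.93 without that of experiment 2. Fewer rose (4) without the replicate block and from the 4 arrays alone.

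Lineage factors had 3 higher and 4 lower of 23 tested, beside 11.5% and 17.2% over all genes. Cebpd, a myeloid and acute phase factor, measured 835 and 1311 at 0 h against 173 and 369.8 at 24 h (-1.98 ± 0.23, adjusted p = 0.000264). Irf4, needed for the DC subset that presents on class II, measured 2305 and 3219 at 0 h against 1364 and 458 at 24 h (-1.76 ± 0.43, adjusted p = 0.0131), and Irf8 1105 and 1518 at 0 h against 6380 and 1919 at 24 h (adjusted p = 0.0551), so Irf8 did not pass. Irf8 passed under median centring (adjusted p = 0.0448), after quantile normalization (adjusted p = 0.0445), without the experiment 2 array at 0 h (adjusted p = 0.0339) and without the experiment 2 array at 24 h (adjusted p = 0.017). It had a log2 fold change of 0.72 without the experiment 1 array at 0 h and 2.13 without that of experiment 2. Irf4 (adjusted p = 0.118) lost the call without the experiment 2 array at 0 h. Irf4 had a log2 fold change of -2.70 without the experiment 1 array at 24 h and -0.82 without that of experiment 2. Fewer rose (0) or fell (2) without the replicate block. More rose (5) under median centring. Fewer rose (0) from the 4 arrays alone. Fewer rose (1) without the experiment 1 array at 0 h. Fewer rose (1) or fell (2) without the experiment 2 array at 0 h. More fell (9) without the experiment 1 array at 24 h.

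Genes of the caspase and death receptor pathway rose in 12 of 22 and fell in 1. The inflammatory caspases Casp4, a sensor of cytosolic lipopolysaccharide, and Casp1, which matures IL-1β, measured 721 and 517 at 0 h against 5662 and 7662 at 24 h and 2799 and 2138 at 0 h against 10190 and 10790 at 24 h in that order (3.40 ± 0.27 and 2.09 ± 0.21, adjusted p = 2.01e-05 and 9.62e-05). Mlkl, which ruptures the membrane in necroptosis, measured 1118 and 1242 at 0 h against 6986 and 7705 at 24 h (2.62 ± 0.17, adjusted p = 4.93e-06), and the pore-former Gsdmd 2180 and 2713 at 0 h against 5466 and 9035 at 24 h (1.52 ± 0.18, adjusted p = 0.000316). Cflar, the inhibitor of caspase-8, rose too, with 1345 and 1242 at 0 h against 4224 and 2845 at 24 h (1.41 ± 0.17, adjusted p = 0.000347). The BCL2 family had 3 of 13 higher and 1 lower, beside 11.5% and 17.2% over all genes. On the BCL2 family list, fewer rose (0) without the replicate block and without the experiment 2 array at 0 h and fewer rose (1) without the intensity trend and from the 4 arrays alone.

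Genes of the unfolded protein and integrated stress responses went both ways. Of 29 genes, 6 rose and 7 fell, and after quantile normalization 5 rose and 10 fell. Ddit3 (CHOP), the transcription factor of the integrated stress response, measured 546 and 924 at 0 h against 5722 and 8416 at 24 h, a 9.57-fold rise (3.26 ± 0.22, adjusted p = 6.83e-06), and Atf3, another, 8072 and 7646 at 0 h against 18070 and 16840 at 24 h (1.15 ± 0.16, adjusted p = 0.000672). Herpud1, of degradation from the endoplasmic reticulum, measured 2573 and 2532 at 0 h against 633 and 869 at 24 h (-1.76 ± 0.18, adjusted p = 0.000136), and Manf, a secreted protector of that compartment, 9040 and 8665 at 0 h against 3264 and 4401 at 24 h (-1.22 ± 0.19, adjusted p = 0.00137). The chaperone Hspa5 (BiP) measured 19710 and 19320 at 0 h against 14780 and 19280 at 24 h and did not pass (adjusted p = 0.328), nor did Xbp1 (adjusted p = 0.532). Hspa5 passed after quantile normalization (adjusted p = 0.00862). Fewer rose (3) or fell (4) without the replicate block and without the experiment 1 array at 0 h. Fewer fell (3) from the 4 arrays alone. Fewer fell (4) without the experiment 2 array at 0 h.

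Ribosome biogenesis was the widest downward group: 38 of 48 tested genes fell and the other 10 did not pass, against 17.2% lower over all genes, with a list median of −1.36 on the log2 scale. Under median centring or after quantile normalization 36 fell, and 31 without the replicate block. Gar1, a protein of the H/ACA particles that guide pseudouridine into ribosomal RNA, measured 1235 and 986 at 0 h against 176 and 105 at 24 h, a 7.34-fold fall (-2.88 ± 0.22, adjusted p = 1.56e-05). Its partner Dkc1, the pseudouridine synthase, measured 738 and 548 at 0 h against 112 and 96.5 at 24 h (-2.44 ± 0.25, adjusted p = 0.000127), and Nhp2, of the same particle, 7333 and 6758 at 0 h against 2043 and 3283 at 24 h (-1.44 ± 0.20, adjusted p = 0.000762). On the other class of guide particles, the methylase Fbl (fibrillarin) measured 3719 and 3249 at 0 h against 1230 and 1229 at 24 h (-1.49 ± 0.18, adjusted p = 0.00034) and its scaffold Nop58 429 and 551 at 0 h against 69.4 and 2.93 at 24 h (-3.64 ± 0.62, adjusted p = 0.0021). In both particle classes the groups did not overlap. Wdr12 and Rrs1, factors of the large subunit, measured 792 and 849 at 0 h against 148 and 135 at 24 h and 2908 and 2460 at 0 h against 859 and 835 at 24 h in that order (adjusted p = 8.66e-05 and 0.000325). Of the small-subunit factors whose promoters are printed above, Utp20 measured 601 and 391 at 0 h against 114 and 12.9 at 24 h (-3.03 ± 0.47, adjusted p = 0.00131) and Tsr1 2004 and 1698 at 0 h against 397 and 257 at 24 h (-2.47 ± 0.37, adjusted p = 0.00109). Pes1, the partner of Wdr12, did not pass, with 1228 and 903 at 0 h against 919 and 662 at 24 h (adjusted p = 0.122). Nop58 had a log2 fold change of -4.71 without the experiment 1 array at 24 h, -2.57 without that of experiment 2, -4.87 with a pseudocount of 1 and -2.54 with 64. Utp20 had a log2 fold change of -4.02 without the experiment 1 array at 24 h, -2.04 without that of experiment 2 and -2.23 with a pseudocount of 64. Fewer fell (25) from the 4 arrays alone and without the experiment 2 array at 0 h.

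Other parts of protein synthesis were lower to a smaller extent. Translation factors had 11 of 39 lower and 3 higher, and after quantile normalization 16 lower. Eef1e1, of the synthetase complex, measured 2804 and 2278 at 0 h against 724 and 566 at 24 h (-1.95 ± 0.18, adjusted p = 5.04e-05), and Eif2b3, of the exchange factor that the integrated stress response inhibits, 932 and 912 at 0 h against 309.7 and 178 at 24 h (-1.90 ± 0.31, adjusted p = 0.0018). Cytosolic tRNA synthetases had 6 of 19 lower and 1 higher. Vars, for valine, measured 468 and 440 at 0 h against 93.7 and 38.4 at 24 h (-2.60 ± 0.37, adjusted p = 0.000818), and Farsb, for phenylalanine, 2352 and 3493 at 0 h against 792 and 1042 at 24 h (-1.64 ± 0.17, adjusted p = 0.000139). The chaperonin list, whose CCT ring folds actin and tubulin, had 10 of 17 lower and 2 higher. Cct5 measured 6414 and 6498 at 0 h against 2369 and 2477 at 24 h (-1.41 ± 0.16, adjusted p = 0.000189), and the mitochondrial chaperonin Hspd1 8358 and 9068 at 0 h against 3320 and 1948 at 24 h (-1.77 ± 0.26, adjusted p = 0.00108). On the translation factor list, fewer rose (0) or fell (7) without the replicate block and without the experiment 2 array at 0 h, fewer rose (0) or fell (5) from the 4 arrays alone, more rose (6) without the experiment 1 array at 24 h and fewer fell (7) without the experiment 1 array at 0 h. On the tRNA synthetase list, fewer fell (3) without the replicate block and from the 4 arrays alone. On the chaperonin list, fewer fell (6) without the replicate block, fewer fell (3) from the 4 arrays alone and fewer fell (4) without the experiment 1 array at 0 h.

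The ribosomal proteins themselves gave no settled direction. Of 47 cytosolic ones, 4 were called lower and 1 higher, but 20 were called lower after quantile normalization, 26 without the experiment 2 array at 24 h and 0 without the experiment 1 array at 0 h. Of 76 mitochondrial ones, 16 were lower and 10 higher, and under median centring 8 were lower and 12 higher. Over all genes 17.2% were lower and 11.5% higher. Mrps28 measured 1382 and 1202 at 0 h against 222 and 451 at 24 h (-1.97 ± 0.27, adjusted p = 0.000642) and Mrpl1 529 and 525 at 0 h against 1440 and 2317 at 24 h (1.76 ± 0.22, adjusted p = 0.000368), so members of 1 ribosome moved apart. Counts on the mitochondrial list ran from 2 to 17 higher and from 4 to 18 lower with 1 array left out. On the mitochondrial list, fewer rose (1) or fell (6) without the replicate block, fewer rose (6) or fell (8) without the intensity trend, fewer rose (2) or fell (2) from the 4 arrays alone, fewer rose (3) or fell (6) without the experiment 1 array at 0 h, fewer rose (2) or fell (4) without the experiment 2 array at 0 h, more rose (17) without the experiment 1 array at 24 h, fewer rose (6) without the experiment 2 array at 24 h, fewer fell (8) under median centring and fewer fell (10) without either 6 h array.

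DNA replication was lower in 22 of 32 tested genes and higher in 1, and in 20 under both other scalings. Rrm2, the subunit of ribonucleotide reductase that limits the supply of deoxynucleotides, measured 1746 and 2127 at 0 h against 117 and 246 at 24 h, a 10.4-fold fall (-3.38 ± 0.23, adjusted p = 6.83e-06). Subunits of the replicative helicase were lower. Mcm5 measured 1554 and 2087 at 0 h against 260.1 and 428 at 24 h (-2.38 ± 0.18, adjusted p = 1.80e-05), and Mcm3 1229 and 1756 at 0 h against 299 and 233 at 24 h (-2.41 ± 0.25, adjusted p = 0.000149). Mcm2, Mcm4, Mcm6 and Mcm7 also fell. Prim1, the primase that starts each strand, measured 393 and 672 at 0 h against 57.1 and 108 at 24 h (-2.47 ± 0.27, adjusted p = 0.000163). The clamp Pcna, bright at both times, did not pass, with 17160 and 20790 at 0 h against 16540 and 18650 at 24 h (adjusted p = 0.583). Pcna passed after quantile normalization (adjusted p = 0.0371). Fewer fell (14) from the 4 arrays alone.

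Mitosis genes were lower in 11 of 22 and higher in 1, and in 9 and 8 with median centring and quantile normalization. Ccna2 (cyclin A2) measured 684 and 853 at 0 h against 103 and 275 at 24 h (-2.07 ± 0.26, adjusted p = 0.000428), and Top2a, which untangles chromosomes, 831 and 863 at 0 h against 162 and 395 at 24 h (-1.67 ± 0.30, adjusted p = 0.00299). Mki67, the usual marker of cycling cells, did not pass, with 693 and 818 at 0 h against 374 and 951 at 24 h (adjusted p = 0.603). Mki67 passed without the experiment 2 array at 24 h (adjusted p = 0.0204). The 1 riser was the spindle assembly factor Tpx2, with 433 and 428 at 0 h against 2223 and 2002 at 24 h (2.25 ± 0.27, adjusted p = 0.000322). Fewer fell (5) without the replicate block. Fewer fell (3) from the 4 arrays alone and without the experiment 1 array at 0 h. Fewer fell (7) without the experiment 1 array at 24 h. More fell (18) without the experiment 2 array at 24 h.

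Regulators of growth moved both ways, 7 higher and 7 lower of 23 tested. Myc, whose product binds the E-box with MAX and drives ribosome genes, measured 782 and 727 at 0 h against 121 and 81.8 at 24 h, a 6.66-fold fall (-2.73 ± 0.35, adjusted p = 0.000423). Mxd1, which competes with MYC for MAX and represses its targets, measured 147 and 214 at 0 h against 2353 and 1730 at 24 h, a 10.5-fold rise (3.39 ± 0.31, adjusted p = 5.22e-05). The groups were far apart in both. Cdkn1a (p21), an inhibitor of cyclin-dependent kinases, measured 4899 and 5824 at 0 h against 13360 and 16120 at 24 h (1.46 ± 0.21, adjusted p = 0.00101), Ccnd1 (cyclin D1) 931 and 1106 at 0 h against 1902 and 2800 at 24 h (1.17 ± 0.17, adjusted p = 0.000923) and Ccne2 (cyclin E2) 609.9 and 456 at 0 h against 105 and 153 at 24 h (-1.93 ± 0.32, adjusted p = 0.00191). Fewer rose (3) or fell (3) without the replicate block. Fewer fell (4) from the 4 arrays alone and without the experiment 1 array at 0 h.

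In energy metabolism, the tricarboxylic acid cycle was lower in 7 of 21 genes and higher in 1, and glycolysis higher in 7 of 21 and lower in 3. Fh1 (fumarase) measured 3478 and 3378 at 0 h against 808 and 1013 at 24 h, a 3.74-fold fall (-1.90 ± 0.18, adjusted p = 6.10e-05), and Suclg2, of succinyl-CoA ligase, 486 and 609.9 at 0 h against 118 and 228 at 24 h (-1.63 ± 0.27, adjusted p = 0.00183). Acod1, which draws aconitate off the cycle to make itaconate, was the 1 riser, with 16540 and 10570 at 0 h against 28200 and 30780 at 24 h (1.15 ± 0.22, adjusted p = 0.00375). On the glycolytic side, Pfkfb3, which speeds the committed step, measured 366 and 253 at 0 h against 1141 and 842 at 24 h (1.64 ± 0.31, adjusted p = 0.00402), and the lactate carrier Slc16a1 1547 and 1406 at 0 h against 361 and 315 at 24 h (-2.08 ± 0.27, adjusted p = 0.000459). The respiratory chain had 4 of 78 higher and 4 lower as deposited, 11 lower after quantile normalization, 29 higher without the experiment 1 array at 24 h and 21 lower without that of experiment 2, so its direction turned on which array was left out. On the tricarboxylic acid cycle list, fewer fell (4) without the replicate block and without either 0 h array and fewer fell (3) from the 4 arrays alone. On the glycolysis list, fewer rose (3) or fell (1) without the replicate block and without the experiment 2 array at 0 h, fewer rose (3) without the intensity trend and without the experiment 1 array at 0 h, fewer rose (2) or fell (1) from the 4 arrays alone and more rose (12) without the experiment 2 array at 24 h.

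Lipid synthesis fell in 12 of 28 genes and the others did not pass, while 8 fell under each of the other scalings. Fasn (fatty acid synthase) measured 855 and 544 at 0 h against 150 and 62.9 at 24 h, a 6.10-fold fall (-2.61 ± 0.31, adjusted p = 0.000274). Cyp51, a demethylase of the cholesterol pathway, measured 1152 and 1188 at 0 h against 227 and 352 at 24 h (-1.99 ± 0.27, adjusted p = 0.0006), and Hmgcs1, near its start, 3782 and 4628 at 0 h against 1630 and 978 at 24 h (-1.72 ± 0.30, adjusted p = 0.00236). In these 3 the groups did not overlap. Of 8 sterol efflux genes, the lysosomal cholesterol carrier Npc2 passed, with 17350 and 20230 at 0 h against 38530 and 47480 at 24 h (1.19 ± 0.13, adjusted p = 0.000168). On the lipid synthesis list, fewer fell (7) without the replicate block, from the 4 arrays alone and without the experiment 2 array at 0 h and fewer fell (5) without the experiment 1 array at 0 h.

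Lysosomal genes were higher in 14 of 29 and lower in 1, but in 6 after quantile normalization. Lamp2, a membrane protein of the lysosome, measured 13550 and 14810 at 0 h against 26590 and 32420 at 24 h (1.05 ± 0.15, adjusted p = 0.000713), and the hydrolase Gla 3453 and 4255 at 0 h against 8158 and 14290 at 24 h (1.49 ± 0.17, adjusted p = 0.000207). Gusb, another hydrolase and a common reference gene, fell, with 9451 and 10450 at 0 h against 4227 and 3807 at 24 h (-1.31 ± 0.15, adjusted p = 0.000218). The constitutive proteasome had 7 of 35 higher and 2 lower as deposited and 1 higher and 4 lower after quantile normalization. None of the 7 rises was left without the replicate block, from the 4 arrays alone or without the experiment 2 array at 0 h, and 11 rose without the experiment 1 array at 24 h. On the lysosomal list, fewer rose (3) without the replicate block, fewer rose (6) after quantile normalization and without the experiment 2 array at 0 h, fewer rose (9) without the intensity trend and without the experiment 1 array at 0 h and fewer rose (2) from the 4 arrays alone.

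Among effector enzymes, Nos2, which makes nitric oxide, was below 16 at 0 h and measured 5.66 and 9.95 at 0 h against 1122 and 1884 at 24 h (5.95 ± 0.54, adjusted p = 5.20e-05). Ptges, the last step to prostaglandin E2, measured 245 and 229 at 0 h against 1794 and 1954 at 24 h (2.90 ± 0.19, adjusted p = 6.41e-06), and Alox5, which starts leukotriene synthesis, 635 and 1058 at 0 h against 179 and 171 at 24 h (-2.13 ± 0.29, adjusted p = 0.000666). They belong to a list with 3 of 15 higher and 2 lower. Immediate early genes had 3 of 17 higher and 4 lower, beside 11.5% and 17.2% over all genes. Csrnp1 measured 426 and 397 at 0 h against 2277 and 3549 at 24 h (2.74 ± 0.25, adjusted p = 5.07e-05) and Egr3, a zinc-finger factor, 461 and 296 at 0 h against 5.07 and 30.2 at 24 h (-3.63 ± 0.50, adjusted p = 0.00073). Clock genes had 4 of 16 higher and 1 lower, with the repressor Nfil3 at 259 and 442 at 0 h against 1357 and 1274 at 24 h (1.91 ± 0.32, adjusted p = 0.002). Egr3 had a log2 fold change of -2.86 without the experiment 1 array at 24 h, -4.40 without that of experiment 2, -4.75 with a pseudocount of 1 and -2.43 with 64. Nos2 had a log2 fold change of 7.41 with a pseudocount of 1 and 4.40 with 64. On the immediate early gene list, more rose (5) under median centring, fewer rose (1) from the 4 arrays alone, fewer rose (1) or fell (2) without the experiment 1 array at 0 h, fewer rose (1) or fell (1) without the experiment 2 array at 0 h and more fell (7) without the experiment 1 array at 24 h. On the clock gene list, fewer rose (2) without the replicate block, more rose (8) after quantile normalization and fewer rose (1) from the 4 arrays alone and without the experiment 2 array at 0 h.

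Some of the largest changes lay outside the lists. Ms4a4c, a membrane protein of the MS4A family, had the largest fold with the pseudocount of 16, from 64.6 and 11.9 to 18460 and 20550 (8.68 ± 0.39, adjusted p = 5.07e-07). Pald1 (paladin), a phosphatase-like protein, had the largest fall with that pseudocount, from 1582 and 1035 to 32.5 and 6.96 (-5.28 ± 0.47, adjusted p = 4.49e-05). With a pseudocount of 64, Ifit2 rose more than Ms4a4c (7.68 against 7.63) and Cdh1 fell more than Pald1. In Ms4a4c and Pald1 the groups were far apart although the low signals differed between experiments. Mamdc2, a secreted matrix protein, measured 778 and 930.3 at 0 h against 29.6 and 59.9 at 24 h (-3.88 ± 0.28, adjusted p = 9.15e-06), and Lrr1, of a ubiquitin ligase that unloads the replicative helicase, 237 and 227 at 0 h against 2.39 and 8.87 at 24 h (-3.53 ± 0.45, adjusted p = 0.000453). Ms4a4c had a log2 fold change of 9.30 without the experiment 1 array at 0 h, 8.06 without that of experiment 2, 9.39 with a pseudocount of 1 and 7.63 with 64. Pald1 had a log2 fold change of -5.87 without the experiment 1 array at 24 h, -4.69 without that of experiment 2, -6.29 with a pseudocount of 1 and -4.02 with 64. Mamdc2 had a log2 fold change of -3.09 with a pseudocount of 64. Lrr1 had a log2 fold change of -5.33 with a pseudocount of 1 and -2.09 with 64. Of the 54 genes called higher by at least 16-fold, 16 had both 0 h signals under the filter value of 78.4, and of the 199 called lower by at least 4-fold, 66 had both 24 h signals there. Signals are printed as rounded to at most 4 significant digits.

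The last 12 h of the course were compared directly. Of 10985 genes, 282 were higher (2.57%) and 243 lower (2.21%) at 24 h than at 12 h. These calls depended on the replicate block: without it limma called 0 of 22519 probe sets in either direction, with 1416 higher and 1180 lower at an unadjusted p under 0.05. The early cytokines Tnf, Il6 and Il1a were among the fallers. Tnf measured 7155 and 4239 at 12 h against 772 and 350.4 at 24 h, a log2 difference of -3.36 (adjusted p = 0.000762), Il6 6798 and 878 at 12 h against 410.3 and 183 at 24 h (-3.08, adjusted p = 0.00622) and Il1a 8201 and 6396 at 12 h against 745 and 1021 at 24 h (-3.03, adjusted p = 0.00185). The interferon genes Ifna4 and Ifnb1 were lower too. Ifna4 measured 443 and 369 at 12 h against 3.81 and 19.9 at 24 h (-3.98, adjusted p = 0.0106) and Ifnb1 5290 and 3322 at 12 h against 86.1 and 842 at 24 h (-3.83, adjusted p = 0.0426). F3 (tissue factor), which starts coagulation, measured 2953 and 5661 at 12 h against 257 and 808 at 24 h (-3.11, adjusted p = 0.000762), and Mir155hg, the host transcript of miR-155, 1730 and 545 at 12 h against 243 and 24.8 at 24 h (-3.27, adjusted p = 0.00114). Among the risers, Cxcr4 measured 153 and 341 at 12 h against 1034 and 1260 at 24 h (2.24, adjusted p = 0.00805), and Fbxo32 (atrogin-1), a ubiquitin ligase subunit, 300.5 and 293 at 12 h against 1636 and 1094 at 24 h (2.11, adjusted p = 0.00842). With 1 array left out the probe sets called ran from 6 to 1889 higher and from 15 to 2429 lower, lowest without the experiment 1 array at 12 h, and highest without the 24 h arrays of experiment 2 and experiment 1, in that order.

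Against 0 h, the groups that moved most at 24 h had mostly moved by 12 h. All times share the 0 h arrays, so the values are given side by side with no test. Antiviral effectors had list medians of 2.03, 3.12, 3.74 and 3.55 on the log2 scale at 3, 6, 12 and 24 h, and Schlafen genes 2.81, 4.64, 4.87 and 4.00. The MHC class I list came later, with 0.21, 0.81, 1.57 and 1.60. Ribosome biogenesis stood at −0.27, −0.86, −1.61 and −1.36, DNA replication at −0.11, −0.42, −1.22 and −1.16, and mitosis at 0.05, −0.07, −0.79 and −0.97. Ifit1 had log2 fold changes of 6.99, 7.66 and 7.86 at 3, 6 and 12 h and 7.32 at 24 h, and Myc -1.29, -0.65 and -2.40 and then -2.73. Cytokines as a list were at 1.50 at 12 h and 0.78 at 24 h.

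**Figure D5:**
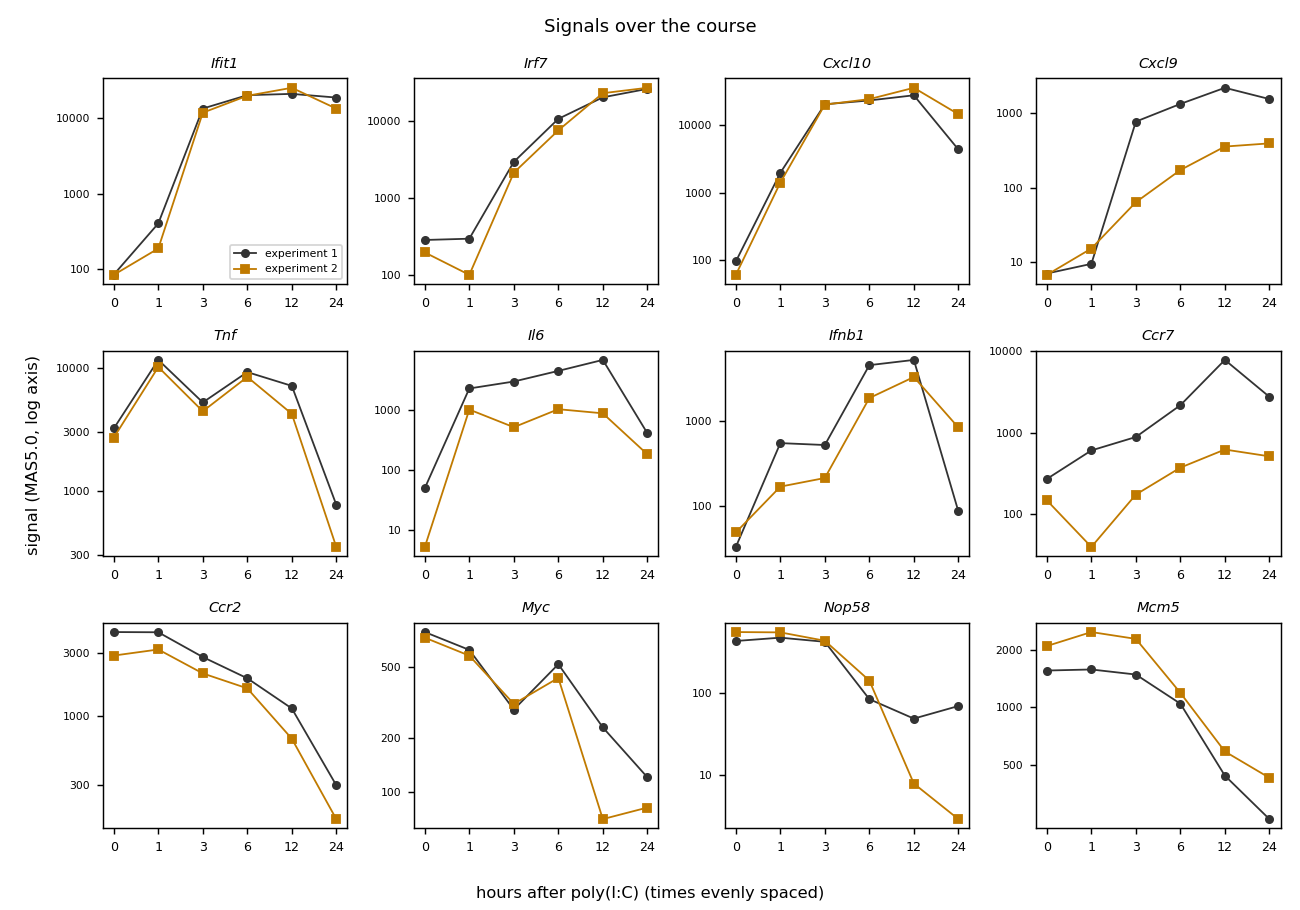
Signals (y axis, log scale) of 12 genes by hours after poly(I:C) (x axis, times evenly spaced), with 1 line per experiment. Ifit1 and Irf7 stay far above 0 h at 24 h in both experiments, Tnf and Il6 are lower there than at 12 h, and Ccr2, Nop58 and Mcm5 are lower at 24 h than at 0 h in both experiments.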

How the data were processed

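The series holds 12 Affymetrix mouse arrays, 1 per time (0, 1, 3, 6, 12 and 24 h) in each of 2 experiments. The authors' core facility computed MAS5.0 signals, deposited as intensity values on a linear scale, with each array scaled to a trimmed mean of 500 without the highest and lowest 2%. Detection calls and image files were not used here. Signals below 16 made up 19.5% to 23.1% of each array. With no detection call, a low signal is not known to be above background. The number of arrays limits precision.

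Of 45101 probe sets, 64 controls were left out. Of the 45037 others, 34945 named 1 gene symbol, 932 several and 9160 none, and no gene was named from the latter. Log2(signal + 16) went into limma 3.58.1 under R 4.3.3 (lmFit, eBayes with intensity trend) on all 12 arrays, with time and experiment (the replicate block) as terms, 5 residual and 5.24 prior degrees of freedom. The 22519 probe sets with a mean over 12 arrays at or above the median, 78.4, were tested, with Benjamini-Hochberg adjustment over all of them and a threshold of 0.05. The words rose and fell are kept for calls past that threshold. For each of 10985 genes the tested probe set with the highest mean signal was used. Fold changes are on the log2(signal + 16) scale, which understates changes of low signals.

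The pairing by experiment comes from the study's methods: 1 mouse per experiment, with separate hybridization and normalization. Deviations from the time means correlated within an experiment at 0.256 to 0.660 with a median of 0.573 for the 15 pairs of times (correlations over probe sets, a description). For 0 h with 24 h, the pair compared here, the value was 0.311, below that median. Lists were described by counts and medians, with no test of a list.

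The members, the 48 gene lists (9 of them cell type markers) and the rule for named genes were chosen with earlier results of these data known. The rule covered the 15 largest rises and falls at 24 h against 0 h and the 10 largest each way against 12 h. It also covered all members of lists of up to 20 tested genes, the 8 smallest adjusted p of longer lists, and defining members that did not pass. Only some of the genes it covers are named here, so the named genes are a choice within the rule. Gbp2, Utp20, Tsr1, Ifi27, Notch1 and Gpr65 lie outside the rule and were chosen after their values were seen. Some genes of these pathways are not analysed here. The code of the fit was tried on simulated arrays with independent noise of equal size at each time. That is not a test of the calls made here. Alternatives were other pseudocounts, filters and scalings, no block, no trend, the 4 arrays alone and each array left out; those of the counts by size in each experiment were chosen after seeing the data. Python 3.11.15, numpy 2.4.6, pandas 2.3.3, scipy 1.17.1 and matplotlib 3.10.9 were used.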

Additional observations from a re-analysis of the deposited data

How the results depend on the processing

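Without the replicate block, 953 probe sets were called higher and 1671 lower at 24 h against 0 h (1454 lower by at least 2-fold), and 0 and 0 at 24 h against 12 h. From the 4 arrays alone the counts were 927 and 1438 (1438 by at least 2-fold) and, against 12 h, 96 and 214. The filter at the 75th percentile left 2617 lower, 1392 lower by at least 2-fold and 720 at least 2-fold lower in each experiment, where fewer probe sets were tested. Against 12 h, 199 were higher and 286 lower with no filter, 93 and 142 with no intensity trend, and 286 lower under median centring. With 1 array left out, probe sets called higher ran from 1128 to 2967 and lower from 1530 to 5990, those of at least 2-fold from 978 to 1708 and from 1400 to 4125, and against 12 h from 6 to 1889 and from 15 to 2429. Of 137 named genes that passed, 127 kept their call under every alternative that tested them (the filter at the 75th percentile left out 16). None of the 137 turned its direction under any alternative. Many were named for a large change or a small adjusted p in these data, so this does not carry over to all calls. Over all genes, 1259 were called higher and 1887 lower. These counts were 587 and 835 without the replicate block and 554 and 675 from the 4 arrays alone. Of the 137 named genes, 8 and 3 lost the call there. Among genes that had not passed, Fos stood at −1.53 without the experiment 1 array at 24 h and 1.94 without that of experiment 2, Notch1 at −1.73 and 1.25 likewise, and Itgax at −0.30 after quantile normalization. The causes were not tested.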
